A study of Mus musculus with 30 samples.

Results

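DKD cells, in which both FoxK1 and FoxK2 were knocked down, were compared with FoxK1 KD cells, in which only FoxK1 was knocked down, after both had been stimulated with insulin. The comparison took every sample that the labels give the genotype Double FoxK1/2 KD or Foxk1 KD together with the treatment Insulin, which gave 3 DKD and 4 FoxK1 KD samples, 7 of the 30 samples in the series. The cells were AML12, an immortalized hepatocyte line from a mouse that carried a transforming growth factor alpha transgene, and knockdown was by transient siRNA transfection, so that residual transcript remained. All 7 samples had been serum-starved overnight in medium with 0.1% BSA and then received 100 nM insulin for 6 h. The other groups used below are the basal samples of both genotypes (serum-starved, mock-treated, labelled 0 min, 4 samples each). After insulin, they are Control cells (non-silencing siRNA, 3 samples) and FoxK2 KD cells (4 samples). The basal Control and FoxK2 KD samples (4 each) enter the shared model, a check of the libraries and some figures. The labels do not say whether replicates came from separate cultures. The p-values rest on the spread between replicates, which may be technical and was estimated over the 8 groups of all 30 samples, not over these 7 alone.

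FoxK1 and FoxK2 are forkhead transcription factors that share a DNA-binding domain with the FoxO family and, like it, lie downstream of the insulin receptor. Insulin drives FoxO proteins out of the nucleus through Akt, whereas FoxK proteins are known to enter the nucleus when insulin inactivates GSK3, and they recruit corepressors such as the Sin3 complex. Because FoxK1 was targeted in both groups, the comparison asks what a further loss of FoxK2 changed in insulin-stimulated cells in which FoxK1 was already reduced.

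The 7 libraries held between 2345903 and 4455447 reads counted on genes (2345903 to 2673390 for FoxK1 KD, 2606258 to 4455447 for DKD). The labelled cell type was checked against marker genes. Of 16 hepatocyte markers 10 passed the filter on low counts, and Hnf4a, a hepatocyte transcription factor, averaged 141 CPM (counts of the gene as a rate per total counts, with libraries scaled to each other) in DKD and 140 CPM in FoxK1 KD cells. Some defining products of mature hepatocytes were low, with albumin (Alb) at 9.37 and 10.4 CPM and Apoa1 at 0.236 and 0.503 CPM. Of 8 cholangiocyte markers 5 passed and 1, Epcam, was at 0 in all 7 samples. Spp1 (1700 and 1480 CPM), Krt19 (506 and 487 CPM) and Sox9 (180 and 179 CPM) were high and Krt7 was at 24.6 and 30.6 CPM. Cftr (2.38 and 2.6 CPM), Muc1 (1.15 CPM in both) and Cldn4 (0.0737 and 0 CPM) were low. The summed hepatocyte markers ranged from 2503 to 2898 CPM in DKD and from 2836 to 3106 CPM in FoxK1 KD samples. Most of this came from Krt18 (means of 919 and 1090 CPM), Krt8 (779 and 886 CPM) and Apob (584 and 655 CPM). None of the 12 stellate cell and fibroblast markers passed the filter, with 9 of them at 0 in all 7 samples. Of 10 endothelial markers 1 passed and 4 were at 0. Of 10 macrophage and leukocyte markers 2 passed and 3 were at 0. All 10 together summed to 98.6 to 123 CPM in DKD and 93.7 to 112.5 CPM in FoxK1 KD samples, most of it from Cd14, with means of 99.1 and 90 CPM. In bulk RNA, fewer cells of a type and less RNA per cell cannot be told apart.

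The targeted genes came first. Foxk2 (ENSMUSG00000039275.9, GRCm38 chromosome 11, 121259990 to 121309896) was measured at 59.0, 66.2 and 67.6 CPM in the 3 DKD samples and at 150, 148, 123 and 136 CPM in the 4 FoxK1 KD samples. All DKD samples lay below all FoxK1 KD samples, and DKD cells kept 46.2% of the FoxK1 KD level. The log2 fold change was -1.12 ± 0.10 (SE, 95% interval -1.31 to -0.92, FDR = 3.28e-09 in edgeR's quasi-likelihood test), the smallest p of all genes. Foxk1 (ENSMUSG00000056493.9), targeted in both groups, was at 30.5, 31.3 and 40.9 CPM in DKD and at 30.7, 28.0, 29.6 and 35.3 CPM in FoxK1 KD samples. These samples overlapped, and the log2 fold change of 0.16 ± 0.15 (SE) did not pass the test (FDR = 0.802). Both groups lay below Control cells after insulin, in which Foxk1 averaged 53.0 ± 4.46 CPM (SD, n = 3), while Foxk2 averaged 163 ± 5.66 CPM there.

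**Figure D1:**
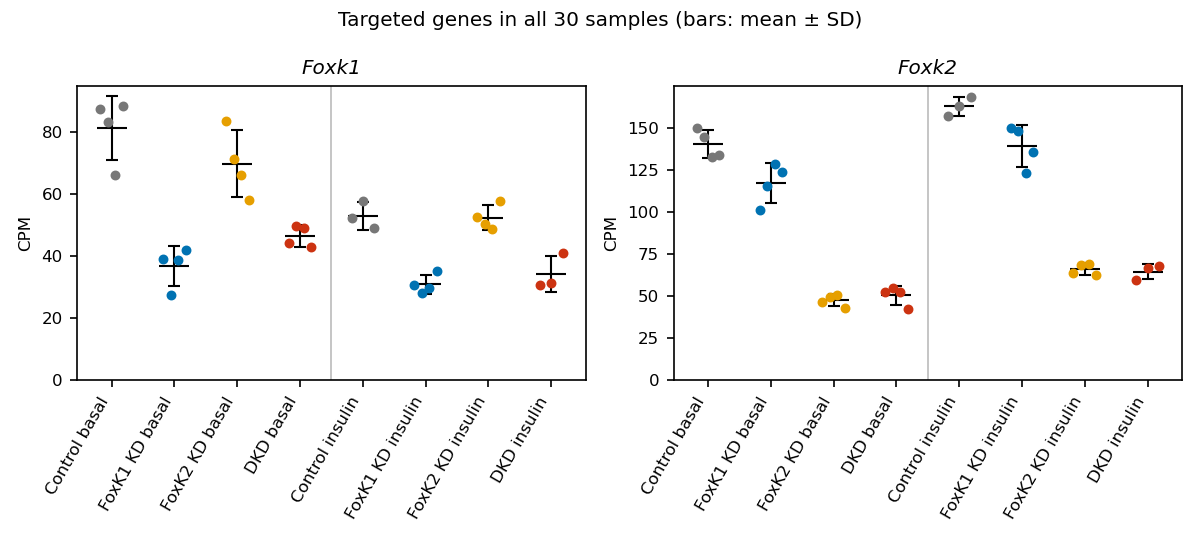
CPM (vertical axes, from 0) of Foxk1 and Foxk2 in the 8 groups (horizontal axes), with a point for each of the 30 samples and bars for mean ± SD. After insulin, Foxk2 was near 64.3 CPM in DKD and 139 CPM in FoxK1 KD cells, while Foxk1 was at a similar level in both.

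Of 11368 genes tested, 40 (0.352%) differed between DKD and FoxK1 KD cells after insulin at an FDR below 0.05, Foxk2 among them. Of these, 22 (0.194%) were higher and 18 (0.158%) were lower in DKD cells. They lay on 17 chromosomes and 38 were protein-coding. In all 40 the 3 DKD samples did not overlap the 4 FoxK1 KD samples, which was true of 1350 tested genes (11.9%). The changes were modest: 20 of the 40 exceeded 1.5-fold, 10 in each direction, and the median absolute log2 fold change was 0.59. At an FDR below 0.25, 151 genes (1.33%) were higher and 133 (1.17%) were lower, together 284 (2.5%). Before adjustment, 1117 genes had a p below 0.05, against 568.4 if no gene differed. A fit on only the 7 samples called 108 genes and turned the balance of directions, with 39 higher and 69 lower.

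**Figure D2:**
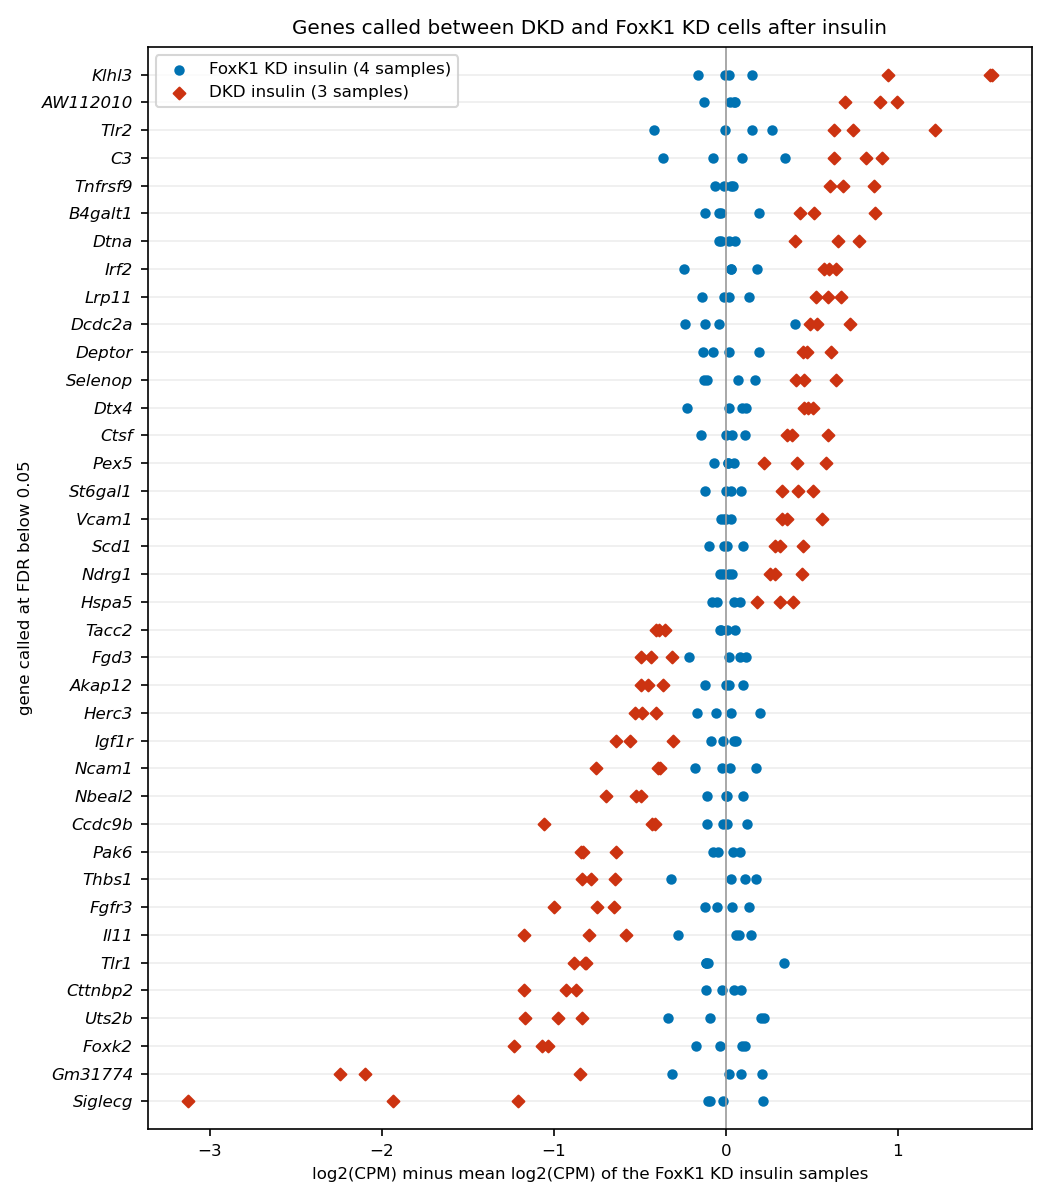
38 of the 40 called genes, ordered by fold change, with log2(CPM) of each sample relative to the mean log2(CPM) of the 4 FoxK1 KD samples on the horizontal axis. Circles are FoxK1 KD samples and diamonds are DKD samples, and in every row the diamonds lie to one side of the circles.

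The 4 genes Foxk2, Cttnbp2, AW112010 and Thbs1 were called under each of 17 other ways of processing or leaving out a sample, and all 40 genes kept their direction in each one that gave a value. The number of calls depended on single samples. It was 24, 20, 27 and 35 without FoxK1 KD replicate 1, 2, 3 and 4, and 19, 14 and 19 without DKD replicate 1, 2 and 3, of which 23, 20, 26, 28, 17, 13 and 18 were among the 40. With 1 sample left out at a time, Akap12, Tnfrsf9, Tlr2, Ccdc9b and Nbeal2 lost their call only without DKD replicate 2, Pak6, Lrp11 and Dtx4 only without DKD replicate 1, and B4galt1 only without DKD replicate 3. Of the other genes named here, 5 lost it without either of 2 samples (Igf1r, St6gal1, Siglecg, Fgfr3 and Ctsf), and the rest without any of 3 to 7 samples. DKD replicate 2 was the shallowest DKD library (2606258 counts), and the part of its depth in this was not tested.

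Igf1r and Fgfr3 were lower and Deptor was higher in DKD cells. Igf1r, the receptor of insulin-like growth factors, was at 107, 90.6 and 85.6 CPM in DKD and at 125, 131, 138 and 137 CPM in FoxK1 KD samples. Its log2 fold change was -0.49 ± 0.09 (SE, FDR = 0.00759), and this call was lost without DKD replicate 2 or 3. Fgfr3, a fibroblast growth factor receptor, was at 24.6, 19.4 and 23.0 CPM in DKD against 37.3, 39.6, 35.6 and 42.3 CPM in FoxK1 KD samples (log2 fold change -0.78 ± 0.16, FDR = 0.00988), a call that was likewise lost without DKD replicate 2 or 3. Deptor, which encodes a protein that binds and inhibits mTOR, went the other way. It was at 72.2, 73.5 and 80.9 CPM in DKD and at 50.2, 53.8, 60.5 and 48.3 CPM in FoxK1 KD samples, and the log2 fold change was 0.51 ± 0.11 (FDR = 0.014). The Deptor call was lost without any one of FoxK1 KD replicates 1, 2 and 4 and DKD replicates 2 and 3. Pak6, a p21-activated kinase, fell from 27.6 ± 1.42 CPM (SD, n = 4) to 16.2 ± 1.31 CPM (SD, n = 3), and Akap12, a scaffold of protein kinases A and C, fell from 530 ± 33.3 to 391 ± 17.7 CPM. Over the whole list of insulin signalling components, 1 of 40 tested members rose and 1 fell, against 0.194% and 0.158% of all genes, and the median log2 fold change of the list was -0.0070.

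Tlr2 and C3 were higher and Tlr1 was lower in DKD cells. Tlr2, the toll-like receptor for bacterial lipoproteins, was at 22.9, 34.4 and 24.8 CPM in DKD and at 14.8, 17.9, 16.5 and 11.1 CPM in FoxK1 KD samples (log2 fold change 0.83 ± 0.16, FDR = 0.00759). Tlr1, which pairs with Tlr2 at the cell surface, was lower in DKD cells. It was at 7.32, 6.97 and 7.30 CPM there and at 16.3, 11.95, 11.85 and 11.88 CPM in FoxK1 KD samples (log2 fold change -0.85 ± 0.20, FDR = 0.0408). Tlr1 has a close paralog in the genome, was not called by DESeq2 or limma-voom, and lost its call without any 1 of the 7 samples. C3, the central component of complement, was at 726, 882 and 825 CPM in DKD and at 446, 365, 502.5 and 597 CPM in FoxK1 KD samples (log2 fold change 0.76 ± 0.16, FDR = 0.0176). The lowest DKD value was thus above the highest FoxK1 KD value, although the 4 FoxK1 KD samples were widely spread, and the call was lost without FoxK1 KD replicate 1 or 2 or DKD replicate 2 or 3. Tnfrsf9, a costimulatory receptor of the tumour necrosis factor family, rose from 30.5 ± 0.98 to 50.2 ± 4.64 CPM.

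Vcam1, a vascular cell adhesion molecule, rose from 124 ± 2.12 to 165 ± 15.0 CPM, and Irf2, an interferon regulatory factor, rose from 28.0 ± 3.32 to 42.3 ± 1.06 CPM. Il11, a cytokine of the interleukin-6 family, fell from 31.6 ± 3.90 to 17.7 ± 3.55 CPM. The long intergenic RNA AW112010 was at 42.4, 52.2 and 48.9 CPM in DKD and at 24.0, 27.3, 27.1 and 26.7 CPM in FoxK1 KD samples (log2 fold change 0.86 ± 0.14, FDR = 0.00153). Siglecg, a sialic acid-binding lectin, had the steepest fall among the calls, from 6.79 ± 0.72 to 1.82 ± 1.08 CPM, but at under 10 CPM in both groups. In the list of chemokines, NF-kB and leukocyte adhesion genes, 1 of 27 tested members rose and none fell, against 0.194% and 0.158% of all genes, and the median log2 fold change was 0.15 against 0.0053 for all genes. At an FDR below 0.25 this list had 3 members higher and none lower, against 1.33% of all genes higher. Those beside Vcam1, named after their values were seen, did not pass the test at 0.05. They were Saa3, an acute-phase protein (30.1 against 17.4 CPM, FDR = 0.0639), and Nfkbie, an NF-kB inhibitor (27.8 against 20.6 CPM, FDR = 0.202).

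Thbs1 and Cttnbp2 were lower in DKD cells. Thbs1, which encodes the matrix glycoprotein thrombospondin-1, was at 41.5, 37.5 and 36.3 CPM in DKD and at 66.1, 51.9, 69.9 and 73.1 CPM in FoxK1 KD samples (log2 fold change -0.76 ± 0.13, FDR = 0.00173). Cttnbp2, which encodes a cortactin-binding protein of the actin cytoskeleton, stood second to Foxk2 in p. It was at 50.7, 53.0 and 42.9 CPM in DKD and at 89.4, 103, 99.9 and 95.4 CPM in FoxK1 KD samples, so that DKD cells held 50.4% of the FoxK1 KD level (log2 fold change -0.996 ± 0.11, FDR = 1.56e-06). Ncam1, a neural cell adhesion molecule, fell from 80.6 ± 8.07 to 56.7 ± 7.93 CPM. Fgd3, an exchange factor for a small GTPase, fell from 105 ± 10.4 to 78.2 ± 5.02 CPM, and Tacc2, a centrosomal coiled-coil protein, fell from 504 ± 14.2 to 387 ± 7.24 CPM. Dtna, a dystrophin-associated protein, rose instead, from 24.2 ± 0.74 to 37.2 ± 4.74 CPM. Of 25 tested collagens, laminins and other matrix genes Thbs1 was the 1 that fell and none rose, against 0.158% and 0.194% of all genes, and the list's median log2 fold change was -0.065.

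Scd1 and Hspa5, both at high levels, were higher in DKD cells. Scd1, a stearoyl-CoA desaturase, was at 1122, 1258 and 1144 CPM in DKD and at 926, 986, 915 and 860 CPM in FoxK1 KD samples (log2 fold change 0.35 ± 0.08, FDR = 0.0456). Hspa5, the main Hsp70 chaperone of the endoplasmic reticulum, was at 1031, 980 and 893 CPM in DKD and at 746, 758, 815 and 833 CPM in FoxK1 KD samples (log2 fold change 0.30 ± 0.07, FDR = 0.0408). Both were changed by less than 1.5-fold and were called with an FDR just under the threshold. The Scd1 call was lost without any 1 of the 7 samples, and the Hspa5 call without any of FoxK1 KD replicates 1, 2 and 3 and DKD replicates 1 and 2. B4galt1 and St6gal1, glycosyltransferases of the Golgi, rose from 68.5 ± 6.55 to 105 ± 17.4 CPM and from 174 ± 10.6 to 232 ± 14.5 CPM. Ctsf, a lysosomal cathepsin, rose from 56.3 ± 4.10 to 76.8 ± 7.08 CPM, and Pex5, the import receptor of peroxisomes, rose from 69.3 ± 2.35 to 92.2 ± 11.4 CPM. Ndrg1, a gene known to respond to hypoxia, rose from 222 ± 5.14 to 279 ± 19.2 CPM (FDR = 0.0444). The Ndrg1 call was also lost without any 1 of the 7 samples.

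Selenop encodes selenoprotein P, the plasma carrier of selenium that the liver secretes. It was at 700, 822 and 724 CPM in DKD and at 483, 554, 593 and 489 CPM in FoxK1 KD samples, with no overlap (log2 fold change 0.50 ± 0.12, FDR = 0.0415). The call was lost without any sample but FoxK1 KD replicate 3. Selenop was the called gene whose promoter held a forkhead motif, and its site is shown for that reason. The motif searched was GTAAACA or its reverse complement TGTTTAC, in the 250 bases before each transcription start of the RefSeq promoter table (GRCm38.p6). The site lay 24 bases before one of the annotated Selenop starts, on the plus strand at chr15:3270943-3270969, with the motif in capitals:
Selenop: agagggcgagGTAAACAacagggctat
In GENCODE M21 this motif fell inside an exon of 1 of 7 Selenop transcripts. Of the 22 genes called higher 14 had a promoter in the table and 1 (7.14%) held the motif, of the 18 called lower 14 had one and none held it, and of all tested genes 241 of 8740 (2.76%) held it. By promoter windows the shares were 1 of 21 (4.76%), 0 of 20 and 261 of 11213 (2.33%). A match describes these letters and not binding.

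The remaining called genes had varied roles. Klhl3, a substrate adaptor of a ubiquitin ligase, had the steepest rise among the calls, at 9.76, 9.67 and 6.41 CPM in DKD and at 3.33, 2.99, 3.39 and 3.71 CPM in FoxK1 KD samples (log2 fold change 1.33 ± 0.27, FDR = 0.00988). Its DKD mean was 2.57 times the FoxK1 KD mean. The Klhl3 call was lost without FoxK1 KD replicate 2 or DKD replicate 1 or 2. Uts2b, which encodes a urotensin-related peptide, fell from 173 ± 30.7 to 86.1 ± 9.90 CPM. Lrp11, a transmembrane protein, rose from 29.8 ± 2.34 to 45.0 ± 2.33 CPM, Dcdc2a, a doublecortin-domain protein, rose from 24.8 ± 5.10 to 36.6 ± 3.22 CPM, and Dtx4, a Deltex-family ubiquitin ligase, rose from 107 ± 11.1 to 148 ± 2.69 CPM. Nbeal2, a BEACH-domain protein of platelet granules, fell from 243 ± 14.2 to 164 ± 12.3 CPM, Ccdc9b fell from 79.7 ± 5.26 to 52.3 ± 12.2 CPM, and Herc3, of the HERC ubiquitin ligase family, fell from 99.3 ± 10.8 to 71.2 ± 3.06 CPM. Gm31774, an antisense transcript, fell from 4.21 ± 0.62 to 1.39 ± 0.80 CPM. The strand setting of the counting is not given in the sources used here, so its reads cannot be told apart from those of a gene on the other strand. AW112010, Akap12, Dtx4, St6gal1, Siglecg, Ctsf, Gm31774, Tacc2, Pex5, Fgd3 and Herc3 are named after their values were seen, and the other called genes follow the rule for named genes.

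Across the gene lists, few members were called. In the list of endoplasmic reticulum chaperones and unfolded protein response genes, Hspa5 was the 1 of 30 members that rose and none fell, while 28 had a log2 fold change above 0 and the list's median was 0.11. Over all 11368 genes, 5805 had a log2 fold change above 0 and the median was 0.0053. At an FDR below 0.25 the list had 6 members higher and none lower, against 1.33% of all genes higher. The 5 beside Hspa5, named after their values were seen, were Dnajc3 (114 against 86.7 CPM, FDR = 0.0785), Pdia4 (307 against 244 CPM, FDR = 0.0716), Sdf2l1 (37.1 against 23.0 CPM, FDR = 0.0802), Hyou1 (333 against 267 CPM, FDR = 0.173), all of which assist protein folding there, and the transcription factor Xbp1 (183 against 143 CPM, FDR = 0.157). Other members lay close to 0, such as Hsp90b1 at 588 against 579 CPM (log2 fold change 0.02 ± 0.08).

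The counts that follow are to be read against 0.194% of all genes higher and 0.158% lower. Scd1 was the 1 of 20 tested lipogenesis and desaturation genes that rose, and none fell. Of 23 tested hypoxia-type genes Ndrg1 rose, none fell and 20 lay above 0, with a median of 0.12, and of 26 genes of glucose uptake and glycolysis none was called and 21 lay above 0, with a median of 0.10. Among 20 tested plasma proteins and apolipoproteins C3 rose and none fell. Of 19 tested FoxO-type fasting genes, known targets of FoxO proteins, none was called and the median was 0.10. Of 17 FoxK, FoxO and partner proteins Foxk2 fell and no other was called, with Foxo3 at 262 against 231 CPM (FDR = 0.332) and Sin3a at 82.5 against 76.9 CPM (FDR = 0.824).

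No member was called among 34 nuclear-encoded complex I subunits (median log2 fold change -0.0021), 36 nuclear-encoded subunits of complexes III to V (-0.055), 11 messenger RNAs of the mitochondrial genome (-0.12), 28 genes of fatty acid oxidation (0.05), 79 cytosolic and 74 mitochondrial ribosomal proteins (-0.026 and 0.0024), 50 DNA replication genes (-0.044), 58 mitosis genes (-0.043) or 27 BCL2 family members and caspases (0.07). Of 13 tested snoRNA host transcripts 2 lay above 0, with a median of -0.15, and none was called. The other lists fixed for this comparison, which cover IGF binding proteins, immediate early genes, the TCA cycle, G1 cyclins, ATF4 targets, NRF2 targets, interferon-stimulated genes, autophagy, ribosome biogenesis, the circadian clock, hepatocyte transcription factors and the cell type markers, held no called member either. A count of 0 in a list of this size does not show that its genes were equal, since the median SE of a log2 fold change was 0.145 over all genes.

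**Figure D3:**
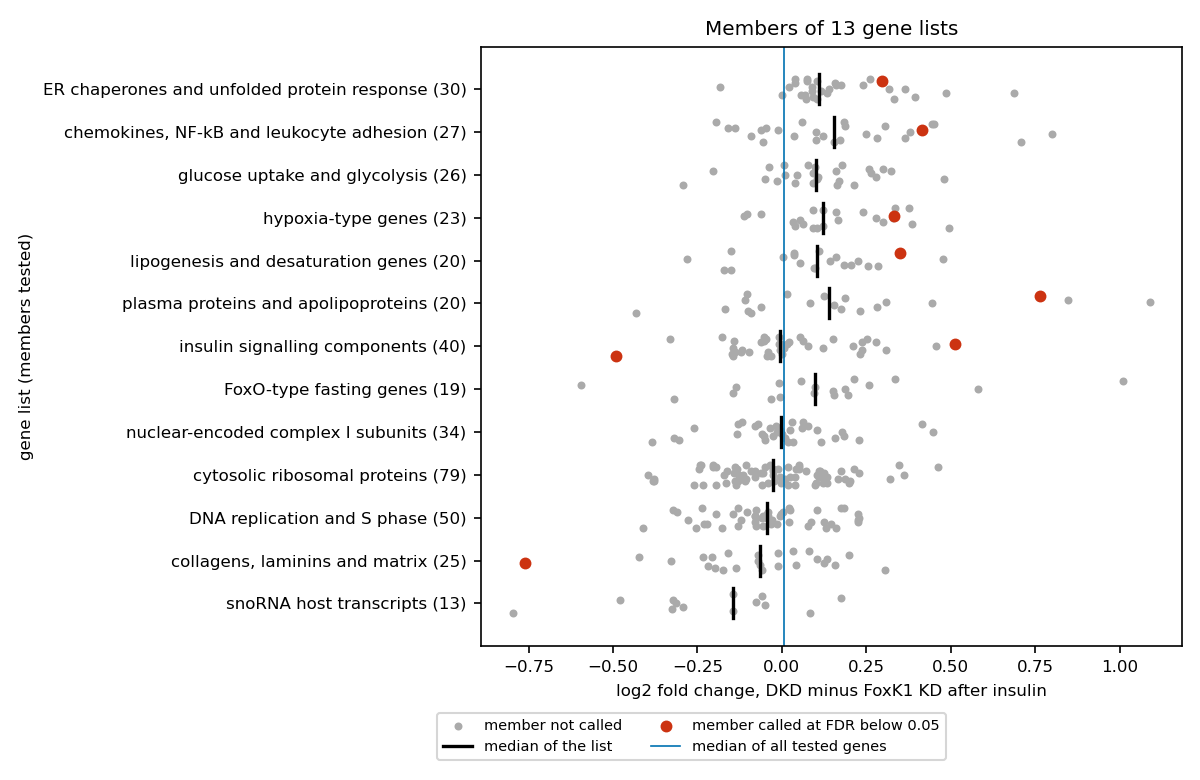
Log2 fold changes (horizontal axis, DKD minus FoxK1 KD after insulin) of the tested members of 13 gene lists, with a point for each gene, large points for called members and a black bar at the list's median. The medians lie between -0.15 (snoRNA hosts) and 0.15 (chemokines and NF-kB genes), and at most 2 members of a list were called.

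Of the genes that the study names for its RNA-seq, 12 of the basal list were tested and 2 of them, Scd1 and Vcam1, rose, against 0.194% of all genes. The study lists both as downregulated in DKD cells at basal, where the reference was Control and not FoxK1 KD. After insulin, both means were also lower in DKD than in Control cells (Scd1 1175 and 1509 CPM, Vcam1 165 and 192 CPM). In edgeR's test this difference passed for Scd1 (FDR = 0.0285) but not for Vcam1 (FDR = 0.289). Ccnd1, a G1 cyclin, was at 660, 604 and 685 CPM in DKD and 760, 734, 713 and 746 CPM in FoxK1 KD samples (log2 fold change -0.18 ± 0.08, FDR = 0.437). The samples did not overlap, but the difference did not pass the test over all genes. Of 21 genes named after insulin 6 passed the filter and none was called. Hk2, a hexokinase that insulin induces, was at 37.3, 37.5 and 38.0 CPM in DKD and at 36.2, 36.6, 33.4 and 34.9 CPM in FoxK1 KD samples (log2 fold change 0.09 ± 0.12, FDR = 0.875). Dusp5, an ERK phosphatase, was at 2.44, 2.71 and 2.87 CPM against 5.17, 2.99, 4.66 and 6.31 CPM (FDR = 0.393), at counts too low for a firm statement. Ccng2, Cdkn1b and Slc7a11 had FDR values from 0.544 to 0.872.

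The same contrast was then read in samples that it did not use. At basal, DKD and FoxK1 KD cells differed in 2991 genes (26.3%), far more than the 40 after insulin, with 1565 higher (13.8%) and 1426 lower (12.5%) in DKD. Of the 22 genes higher after insulin 20 had the same sign at basal, where 51.4% of all genes had that sign, and 7 were called there, among them Tnfrsf9, Tlr2, C3, Dtx4, Ctsf and Pex5. Of the 17 lower genes other than Foxk2 16 had the same sign, against 48.6% of all genes, and 5 were called: Cttnbp2, Igf1r, Tlr1, Tacc2 and Ncam1. None was called in the opposite direction. C3 rose at basal from 356 ± 92.2 to 636 ± 74.4 CPM (SD, n = 4 each, log2 fold change 0.83), a change of the same size as after insulin, and Cttnbp2 fell from 102 ± 9.13 to 60.4 ± 2.35 CPM. Over the 39 genes other than Foxk2, Pearson's r between the log2 fold changes of the 2 comparisons was 0.761, across genes that are not independent, and over all genes it was 0.181.

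The basal libraries of the 2 genotypes also differed in ways that the insulin libraries did not. The log2 fold change at basal followed the GC content of the genes (Spearman's rho 0.598 over 11346 genes), whereas after insulin rho was 0.0235. With the trend on GC content and length taken out, an alternative chosen after seeing the data, 1181 genes were called at basal. The pseudogenes Rps2-ps10 and Gm42939 were at 4.59 to 12 and 4.59 to 13.1 CPM in basal DKD samples but at 0 to 0.66 and 0 CPM in basal FoxK1 KD samples, while after insulin all 7 samples of both genotypes had them (9.27 to 17.4 and 8.13 to 11.9 CPM in DKD, 8.91 to 15.7 and 7.39 to 10.8 CPM in FoxK1 KD). In the other basal groups they were at 0 (Control) and 0 to 0.22 CPM (FoxK2 KD) for Rps2-ps10 and at 0 to 0.284 and 0 CPM for Gm42939, and after insulin both were present in every Control and FoxK2 KD sample (from 2.87 to 14.5 and from 4.42 to 13.5 CPM). Of the basal groups, DKD alone thus had them at levels seen after insulin. The part of these library differences in the basal calls, in the insulin effects and in the interaction given below was not tested.

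FoxK2 was also knocked down alone, on the Control background, in samples that the comparison did not use. After insulin, FoxK2 KD and Control cells differed in 3 genes (0.0264%). Foxk2 (log2 fold change -1.31, FDR = 7.82e-12) and Lamb3, a laminin chain (-0.45, FDR = 0.0268), were lower (0.0176%), and Pdcd4, an inhibitor of translation (0.50, FDR = 0.0242), was higher (0.0088%), the last 2 of these named after their values were seen. Over all 11368 genes, 685 had an unadjusted p below 0.05 in this comparison, in either direction. Of the 22 genes higher in DKD 19 had the same sign in FoxK2 KD cells, against 50% of all genes. Of these, 10 had an unadjusted p below 0.05 there, among them C3, Tlr2, Ctsf, Deptor, AW112010, Dtna, Hspa5, Selenop and Ndrg1. C3 rose from 417 ± 80.6 in Control to 710 ± 65.7 CPM in FoxK2 KD cells and Tlr2 from 16.3 ± 2.81 to 25.2 ± 2.54 CPM, but with an FDR of 0.085 and 0.192 neither passed the test. Of the 17 lower genes 10 had the same sign, against 50% of all genes, and 2, Cttnbp2 and Igf1r, had an unadjusted p below 0.05. Thbs1, at 21.6 ± 2.70 CPM in Control and 22.6 ± 2.39 CPM in FoxK2 KD cells, and Fgfr3, at 19.0 ± 5.07 and 19.3 ± 3.52 CPM, were among those that did not have it. The median log2 fold change of the lower genes was -0.017 there and -0.76 in DKD against FoxK1 KD cells. Pearson's r over the 39 genes was 0.362.

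**Figure D4:**
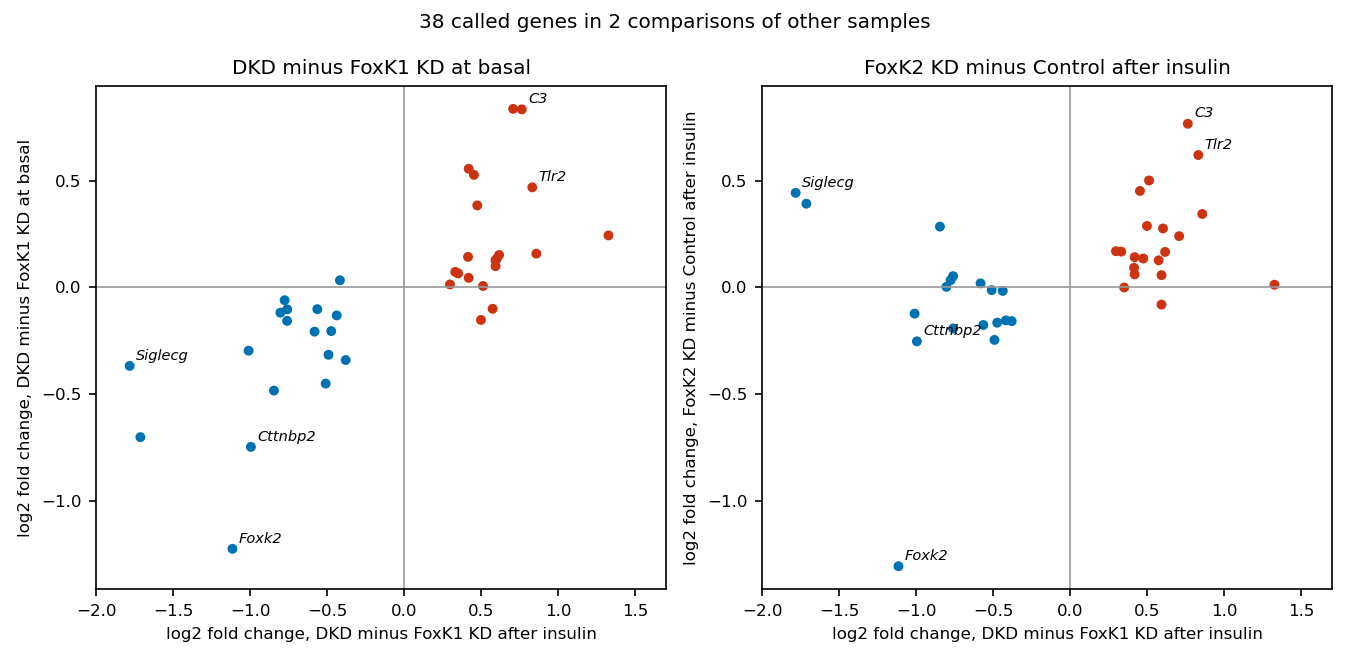
38 of the 40 called genes, with their log2 fold change in DKD minus FoxK1 KD after insulin on both horizontal axes and, on the vertical axes, that of DKD minus FoxK1 KD at basal (left) and FoxK2 KD minus Control after insulin (right). On the left, most genes have the same sign on both axes, while on the right 10 of the 17 lower genes other than Foxk2 lie below 0.

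Whether loss of FoxK2 differed between the 2 backgrounds was tested directly, as the change from FoxK1 KD to DKD minus the change from Control to FoxK2 KD. No gene was called (0% of 11368) by edgeR, which gave 575 genes with an unadjusted p below 0.05, nor by DESeq2 (481 such genes) or limma-voom (589). For Thbs1 the difference was -0.81 (FDR = 0.405) and for Cttnbp2 -0.74 (FDR = 0.405), so that the unequal values above were not shown to differ. The median SE of this difference was 0.20 on the log2 scale, and without a filter on low counts 13 genes were called.

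Whether the difference between DKD and FoxK1 KD cells was another one after insulin than at basal was tested by the interaction of genotype and insulin. In this test 699 genes (6.15%) were called, 361 higher (3.18%) and 338 lower (2.97%). Higher means a more positive insulin effect on the log2 scale in DKD cells, which can be a stronger rise or a weaker fall. With the trend on GC content and length taken out, again chosen after seeing the data, 149 genes were called. The count was 265 without FoxK1 KD basal replicate 2, 348, 444 and 434 without DKD basal replicates 1, 2 and 3, 379 and 307 without FoxK1 KD insulin replicates 2 and 4, and 222 and 332 without DKD insulin replicates 2 and 3. The 5 genes with the smallest p were Kdm6a, a histone demethylase, Prmt2, a protein arginine methyltransferase, Rybp, a Polycomb protein, Selenof and Prrg1, none of them called between DKD and FoxK1 KD cells after insulin. Kdm6a was at 83.0 ± 6.78 CPM in DKD and 157 ± 15.9 CPM in FoxK1 KD cells at basal. After insulin it was at 100, 110 and 103 CPM in DKD and at 88.7, 103, 111 and 90.6 CPM in FoxK1 KD samples, which overlapped, so its difference lay in the basal samples.

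Of the 40 genes called after insulin, 10 also passed the interaction test, against 6.15% of all genes. They were AW112010, Thbs1, Pak6, St6gal1, Fgfr3, Klhl3, Deptor, Selenop, Dcdc2a and Fgd3. The difference after insulin, by which the 40 were picked, is part of this test, so the 40 pass it more readily. With the GC and length trend taken out, 2 of these 10 passed, Thbs1 and Selenop. So did 5 other called genes, B4galt1, Lrp11, Uts2b, Ndrg1 and Scd1. Over all 11368 genes, 149 passed with the trend taken out. Thbs1 was at 61.5 ± 12.1 CPM in DKD and 69.1 ± 4.89 CPM in FoxK1 KD cells at basal. After insulin Thbs1 was at 38.4 ± 2.72 CPM in DKD cells (log2 fold change from basal -0.68). In FoxK1 KD cells it was at 65.2 ± 9.35 CPM (-0.08, FDR = 0.614). The difference of these changes was -0.60 ± 0.17 (FDR = 0.0268), and with the trend taken out it was -0.67 ± 0.16 (FDR = 0.0287). Selenop was at 628 ± 66.0 and 698 ± 96.0 CPM at basal. On the log2 scale its insulin effect was 0.25 in DKD cells, which did not pass the test (FDR = 0.131). In FoxK1 KD cells it was -0.40 (FDR = 0.00463). The difference was 0.65 ± 0.16 (FDR = 0.0154), and with the trend taken out it was 0.59 ± 0.15 (FDR = 0.0329). Deptor was at 113 ± 2.88 and 112 ± 5.48 CPM at basal. It was lower after insulin in both, by 0.58 in DKD and by 1.08 in FoxK1 KD cells on the log2 scale. The difference of 0.51 ± 0.14 passed the test (FDR = 0.0281), but not with the trend taken out (FDR = 0.129). Tnfrsf9 and C3 did not pass the interaction test (FDR = 0.719 and 0.883).

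The level of the called genes in Control cells after insulin is set beside these values, without a test, since a difference of either knockdown from Control shares samples with the comparison. By group means, DKD lay between Control and FoxK1 KD for 15 of the 40 genes, farther from Control than FoxK1 KD on the same side for 6, and on the opposite side of Control from FoxK1 KD for 19. Thbs1 averaged 21.6 CPM in Control, 65.2 CPM in FoxK1 KD and 38.4 CPM in DKD cells. Akap12 averaged 329, 530 and 391 CPM in the same order, Fgfr3 19.0, 38.7 and 22.3 CPM, and Igf1r 91.7 ± 4.89, 133 ± 6.09 and 94.5 ± 11.4 CPM. For these 4 genes the DKD mean lay between the other 2 means. Scd1 averaged 1509, 922 and 1175 CPM, again with DKD in between. Among the 6 that stood farther from Control in DKD than in FoxK1 KD cells, C3 averaged 417, 478 and 811 CPM, Deptor 37.5, 53.2 and 75.5 CPM, and Ctsf 40.9, 56.3 and 76.8 CPM, in the order Control, FoxK1 KD and DKD. Among the 19 on opposite sides, in the same order, Cttnbp2 averaged 59.95, 96.9 and 48.9 CPM, Nbeal2 181, 243 and 164 CPM, Selenop 591, 530 and 748 CPM, and AW112010 37.1, 26.3 and 47.8 CPM. A side was assigned however small the gap, and in other genes of the 19 the DKD mean lay close to Control. In the same order, Uts2b averaged 86.7, 173 and 86.1 CPM, Dtx4 145, 107 and 148 CPM, Lrp11 44.1, 29.8 and 45.0 CPM, and Pex5 89.5, 69.3 and 92.2 CPM. The placing of single genes was not tested, so the 19 are not shown to lie beyond Control in DKD cells.

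**Figure D5:**
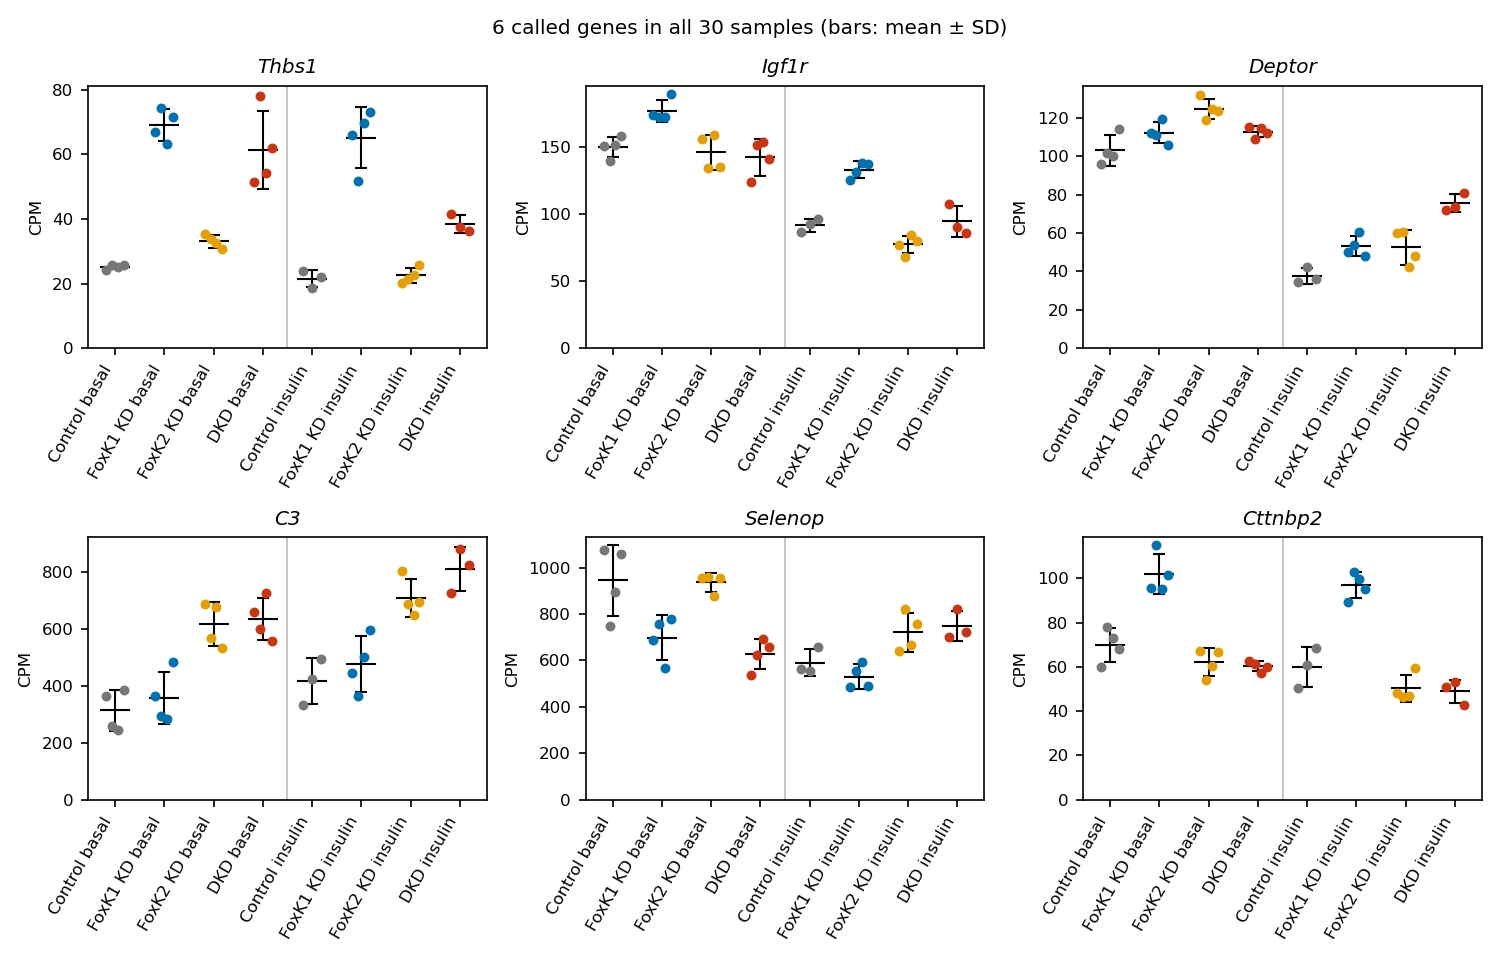
CPM (vertical axes, from 0) of 6 called genes in the 8 groups (horizontal axes), with a point for each sample, bars for mean ± SD and a grey line between basal and insulin samples. After insulin, Thbs1, Igf1r and Cttnbp2 were lower and Deptor, C3 and Selenop were higher in DKD than in FoxK1 KD samples, without overlap, and for C3 and Cttnbp2 the basal samples of the 2 genotypes were also apart.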

How the data were processed

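RNA-seq of 30 samples was used. Per the labels and their processing notes, the authors used CASAVA 1.8, STAR 2.4.2a and featureCounts with genome build GRCm38.p4, and deposited raw counts of reads per gene, without normalization, over 49089 Ensembl identifiers. Of these, 48349 matched GENCODE M21, from which symbols, types and coordinates were taken. Genes were filtered with filterByExpr (11368 remained), scaled by TMM and fitted in 1 model of the 8 groups by edgeR 4.0.16 (glmQLFit, glmQLFTest), with Benjamini-Hochberg adjustment (FDR) over all genes and calls at an FDR below 0.05. SE was taken as |log2 fold change| / sqrt(F), and intervals use 1.96 SE. CPM uses TMM-adjusted library sizes. Named genes were Foxk1, Foxk2, the 12 protein-coding genes in each direction with the largest change among calls with a mean of at least 5 CPM and no overlap, up to 3 called members per list and direction, the genes the study names, and the 5 with the smallest p in each difference contrast. The comparison, lists and rule were chosen with earlier results of these data known. Alternatives were DESeq2 1.42.0, limma-voom (limma 3.58.1), DESeq2 size factors, stricter and no filters, fewer groups, a replicate block, a GC and length offset, thinning to equal depth and leaving out samples. The tests were tried on simulated data, and no pair of replicates agreed within sampling noise (chi-square over its degrees of freedom was at least 1.7 in 42 pairs). R 4.3.3 and Python 3.11.15 were used. Some genes are not reported here.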

Additional observations from a re-analysis of the deposited data

Results flagged for a closer look

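In 3 of 59 named genes, 1 of the 4 FoxK1 KD insulin samples stood apart from the others by Dixon's criterion, about the 1 in 20 that chance flags. Tlr1 was at 16.25 CPM in replicate 1 against 11.85 to 11.95 CPM in the others, AW112010 at 24.01 CPM in replicate 1 against 26.7 to 27.3 CPM, and Adgrg1 at 55.04 CPM in replicate 3 against 70.5 to 73.2 CPM. The 3 DKD samples were too few for this check.

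For 19 named genes the insulin effect in DKD cells differed from that in FoxK1 KD cells by the interaction test at an FDR below 0.05. Of genes called after insulin, the log2 difference was 0.70 for AW112010, -0.60 for Thbs1, -0.66 for Pak6, 0.37 for St6gal1, -0.72 for Fgfr3, 1.08 for Klhl3, 0.51 for Deptor, 0.65 for Selenop, 0.67 for Dcdc2a and -0.45 for Fgd3. Of the other named genes, it was 0.86 for Selenof, 1.09 for Rybp, 1.24 for Prrg1, 0.63 for mt-Nd6, 0.54 for Scd2, 0.36 for Aff4, -0.92 for Prmt2, 0.64 for Cdkn1b and 1.0 for Kdm6a. With the GC and length trend taken out, 8 of the 19 passed the same test. The genes called after insulin were picked by a difference that is part of this test. The interaction followed GC content over all genes (Spearman's rho -0.529), and the part of GC content in these values was not tested.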

How the results depend on the processing

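The count of 40 genes between DKD and FoxK1 KD cells after insulin was 284 with the FDR limit at 0.25, 20 when a 1.5-fold change was also required, 62 with DESeq2, 110 with no filter on low counts, 108 in a fit of the 7 samples, 68 with the GC and length offset and 63 with the offset and the replicate block. It ranged from 14 to 35 when 1 sample was left out. With limma-voom it was 41, with DESeq2 size factors 42, with at least 10 counts in every sample 40 and with thinned libraries 27. For the interaction, the 699 calls became 2823 with the limit at 0.25, 397 with the 1.5-fold requirement, 1345 in a fit of its own groups, and 149 with the offset (chosen after seeing the data), with a range of 222 to 783 when 1 sample was left out. The difference between backgrounds gave 0 calls, also when 1 sample was left out (0 to 0), but 13 with no filter. The cause of these changes was not tested.

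No sign was seen that the replicate numbers paired the samples. Correlations of same-numbered deviations were -0.0699 to -0.0273, and 0 of 3 DKD samples correlated best with their own number. With 3 and 4 samples this check cannot exclude pairing. The replicate block gave 34 calls (31 of them among the 40), 685 for the interaction and 0 between backgrounds. Among genes not called, Alpl (log2 fold change 0.0085) turned to -0.0129 with limma-voom and -0.00223 in a fit of the 7 samples, and ranged from -0.11 (without DKD insulin replicate 2) to 0.0801 when 1 sample was left out. Wdr45 ranged from -0.046 (without DKD insulin replicate 1) to 0.363, and Foxk1 turned to -0.00287 without DKD insulin replicate 3. With 3 and 4 libraries of 2345903 to 4455447 counts, small differences and genes at a few CPM could not be resolved.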
